A study of Mus musculus with 10 samples.

Results

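Cacna1a, Cacna1b, Cacna1c, Cacna1d, Cacna1e, Cacna1g, Cacna1h and Cacna1i encode the pore-forming subunits of the voltage-gated calcium channels of neurons. These 8 genes were taken by symbol from the 55487 genes of the deposited table of gene levels, together with 533 of 458337 exon bins and 112 of 32135 introns. The choice was made by name, with earlier results of these data known, and all 8 were found. The samples are cerebral cortex of mice aged 18 days, whose total RNA was sequenced without its ribosomal part. In the 5 Usp7 cKO; Trp53+/- animals, floxed Usp7 (Usp7 fl/fl) was deleted with NEX-cre, a Cre made from the locus of Neurod6 (also called NEX) in glutamatergic neurons, so that the other cells of the cortex keep Usp7. The 5 Usp7 WT; Trp53+/- animals were their comparison group, and both groups were heterozygous for Trp53. The sources used here do not say whether the Usp7 WT animals carried NEX-cre. USP7 is an enzyme that removes ubiquitin from other proteins.

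A voltage-gated calcium channel opens when the membrane depolarises and lets calcium into the cell, where it triggers transmitter release, gene expression and the opening of other channels. The large alpha-1 subunit forms the pore and gives the channel its type. L-type channels (Cacna1c, Cacna1d) sit mainly on cell bodies and dendrites and signal to the nucleus. P/Q-type (Cacna1a), N-type (Cacna1b) and, to a lesser degree, R-type channels (Cacna1e) drive release at presynaptic terminals. T-type channels (Cacna1g, Cacna1h, Cacna1i) open near the resting potential and support burst firing. Beta and alpha2delta subunits carry the high-voltage-activated pores to the membrane, whereas T-type pores work without them.

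Usp7 itself averaged 36.9 ± 3.96 TPM in Usp7 cKO and 53.9 ± 5.32 TPM in Usp7 WT (SD, n = 5 each), a log2 change of -0.54 (SE 0.0766, limma adjusted p = 0.00131), and the groups did not overlap. TPM scales reads by gene length and by library total, so that levels of different genes can be compared. Reads over all exon bins numbered 42628526 to 51797145 per library. In 2 libraries the labelled sex went against Xist and the Y-linked Ddx3y, namely Usp7 cKO replicate 1, labelled male, and Usp7 WT replicate 2, labelled female, and results are given with and without both where that matters. Of 10 glutamatergic markers, 8 were lower in Usp7 cKO and none higher, against 4.67% of all genes tested that were lower. The 8 include Neurod6, from whose locus the Cre was made, whereas Slc17a6 and Cux2 were not called. The summed level of the 10 was 4397 to 5496 TPM in Usp7 cKO against 7660 to 8949 TPM in Usp7 WT. Nrgn was the largest part of that sum, with means of 2391 TPM in Usp7 cKO and 4640 TPM in Usp7 WT. Of 6 microglial markers, 5 were lower, with sums of 132 to 154 TPM in Usp7 cKO and 194 to 231 TPM in Usp7 WT. Among 6 astrocyte markers 1 was higher and none lower, against 9.22% of all genes tested that were higher. None of the 6 oligodendrocyte, 5 oligodendrocyte precursor and 5 endothelial and mural markers was called by limma. With the libraries of discordant sex left out, 5 glutamatergic and 5 microglial markers were lower, and no astrocyte marker was called. In that fit 868 of all 27667 genes tested were lower. In bulk tissue, fewer cells of a type and less RNA per cell cannot be told apart.

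All 8 pore genes were well detected, with mean levels over the 10 libraries from 35.8 TPM (Cacna1d) to 169 TPM (Cacna1a), which placed them above 83.7 to 97.3% of the genes tested. In Usp7 cKO the genes ranked Cacna1a, Cacna1b, Cacna1i, Cacna1e, Cacna1g, Cacna1h, Cacna1c and Cacna1d. In Usp7 WT they ranked Cacna1a, Cacna1i, Cacna1b, Cacna1e, Cacna1g, Cacna1c, Cacna1h and Cacna1d. Cacna1h thus lay above Cacna1c in 5 of 5 Usp7 cKO libraries, with no overlap of their ranges, and below it in 5 of 5 Usp7 WT libraries, again with no overlap. Cacna1i and Cacna1e overlapped in Usp7 cKO, where Cacna1i was higher in 3 of 5 libraries. In Usp7 WT, the ranges of Cacna1i and Cacna1b overlapped, as did those of Cacna1h and Cacna1d. The other adjacent genes kept their order in all 5 libraries of a group, although most of their ranges overlapped in Usp7 cKO and none did in Usp7 WT. Cacna1f and Cacna1s, the L-type pores of retina and skeletal muscle, together reached 1.08 to 1.57 TPM in Usp7 cKO and 1.201 to 1.80 TPM in Usp7 WT.

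**Figure D1:**
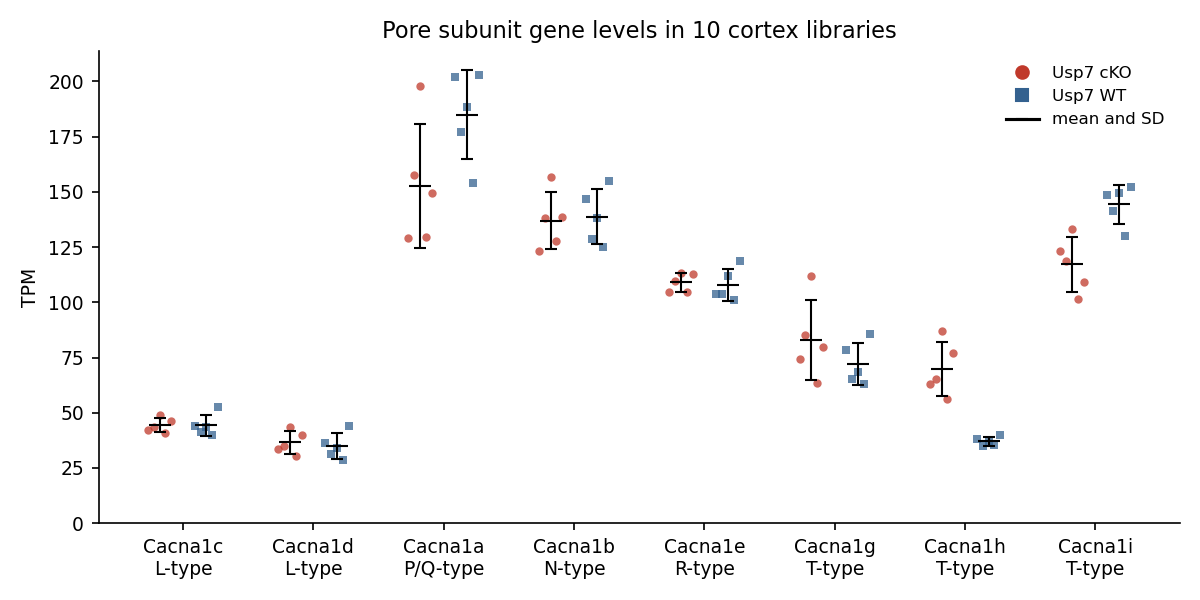
Level in TPM (linear vertical axis) of each pore subunit gene in every library, with Usp7 cKO as red circles, Usp7 WT as blue squares, and the mean and SD of 5 libraries as black bars. The genotypes separate without overlap for Cacna1h alone among the 8 genes, and for 12.8% of all 27580 genes tested.

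In Usp7 cKO cortex, the T-type gene Cacna1h was higher, by 0.89 on the log2 scale, and the T-type gene Cacna1i was lower, by 0.30. The remaining 6 genes did not pass the test on the deposited levels, although Cacna1a did on other scalings. Over all genes tested, limma called 13.9%, with 9.22% of genes higher and 4.67% lower in Usp7 cKO. That split was 2544 higher against 1288 lower on the deposited TPM, and 2701 higher against 2904 lower after TPM was rescaled by median-of-ratios size factors. Among the 8 pore genes, 1 was called higher and 1 lower. The median log2 change was 0.01 for the 8 genes and 0.06 for all genes tested. The term for a genotype effect that differs between the labelled sexes was called by limma for none of the 8 genes, against 0.00725% of all genes. Their smallest unadjusted p was 0.119 (Cacna1h). By Xist and Ddx3y, 1 Usp7 cKO library and 3 Usp7 WT libraries were male, so no effect in males can be set against its own spread, and these data do not show whether the sexes differ.

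Cacna1h (Cav3.2, chromosome 17: 25374285 to 25433783, minus strand, GRCm38) encodes a T-type pore. It had 62.9, 65.4, 86.9, 56.4 and 77.0 TPM in the Usp7 cKO cortices, against 38.02, 34.8, 36.5, 35.4 and 40.1 TPM in the Usp7 WT cortices. The lowest Usp7 cKO library lay above the highest Usp7 WT library, and the Usp7 cKO libraries were the more spread out. The mean ratio was 1.89, and the log2 change was 0.89 (SE 0.0884, limma adjusted p = 0.00015). Without the libraries of discordant sex the change was 0.84 (limma adjusted p = 0.00265). It stayed called under all 23 alternatives run, with log2 changes of 0.80 to 0.94.

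Cacna1i (Cav3.3, chromosome 15: 80287238 to 80398279, plus strand) encodes a slowly inactivating T-type pore of the brain. It had 123, 119, 133, 102 and 109 TPM in Usp7 cKO, against 149, 141, 149, 130 and 152 TPM in Usp7 WT. Only the highest Usp7 cKO library reached into the Usp7 WT range, above its lowest library. The log2 change was -0.30 (SE 0.0718, limma adjusted p = 0.0193). Leaving out 1 library at a time gave adjusted p values of 0.0132 to 0.049, and leaving out both libraries of discordant sex gave a change of -0.37 (limma adjusted p = 0.0272).

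Cacna1g (Cav3.1, chromosome 11: 94408391 to 94474198, minus strand), the T-type pore of thalamic relay cells, had 74.2, 85.2, 112, 63.4 and 79.8 TPM in Usp7 cKO, against 78.5, 65.3, 68.6, 62.9 and 85.6 TPM in Usp7 WT. The groups overlapped across most of their range. The log2 change was 0.18 (SE 0.109, limma adjusted p = 0.311). With edgeR on summed bin counts and no filter on low counts, it passed at 0.15 (adjusted p = 0.0362), where 7236 of all 41350 genes were called. Of the 3 T-type genes, 1 was thus called higher, 1 lower and 1 only under that setting.

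Cacna1a (Cav2.1, chromosome 8: 84388440 to 84640246, plus strand), the P/Q-type pore, had 129, 158, 198, 130 and 149 TPM in Usp7 cKO, against 202, 177, 189, 154 and 203 TPM in Usp7 WT. Of the Usp7 cKO libraries, 3 lay below every Usp7 WT library, and replicate 3 lay among the highest Usp7 WT values. The log2 change of -0.29 (SE 0.0891) missed the threshold on the deposited TPM, with a limma adjusted p of 0.0607. Without Usp7 cKO replicate 3 it was -0.36 (limma adjusted p = 0.01), and without Usp7 WT replicate 2 it was -0.33 (limma adjusted p = 0.0478). With neither library of discordant sex it was -0.32 (limma adjusted p = 0.105). On the rescaled TPM the change was -0.34 (limma adjusted p = 0.00619), where 20.3% of all genes were called. On exon bin counts summed per gene, edgeR gave -0.35 (adjusted p = 0.000386), where 27.8% of all genes were called. Both settings called Cacna1a, Cacna1h and Cacna1i and no other pore gene.

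Cacna1b (Cav2.2, chromosome 2: 24603887 to 24763152, minus strand), the N-type pore, had 123 to 157 TPM in Usp7 cKO and 125 to 155 TPM in Usp7 WT (log2 change -0.02, SE 0.0623, limma adjusted p = 0.871). Cacna1e (Cav2.3, chromosome 1: 154390731 to 154884501, minus strand), the R-type pore, had 105 to 113 TPM in Usp7 cKO and 101 to 119 TPM in Usp7 WT (log2 change 0.02, SE 0.0512, limma adjusted p = 0.866). Neither gene's groups could be told apart, and the small differences changed sign between settings.

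The L-type pores were the lowest of the 8 and also overlapped. Cacna1c (Cav1.2, chromosome 6: 118587240 to 119196418, minus strand), the main L-type pore of brain and heart, had 40.6 to 49.0 TPM in Usp7 cKO and 40.1 to 52.5 TPM in Usp7 WT (log2 change 0.01, SE 0.0686, limma adjusted p = 0.963). Cacna1d (Cav1.3, chromosome 14: 30039939 to 30491455, minus strand), an L-type pore that opens at lower voltage, had 30.5 to 43.6 TPM in Usp7 cKO and 28.8 to 44.2 TPM in Usp7 WT (log2 change 0.06, SE 0.0993, limma adjusted p = 0.719). The signs of both also depended on the setting.

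**Figure D2:**
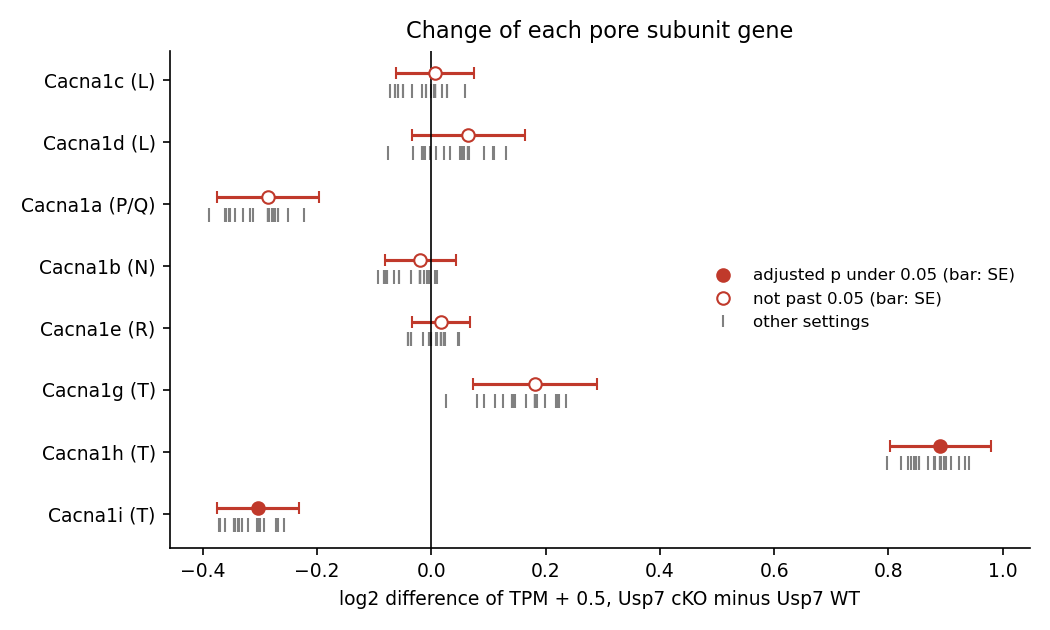
Log2 difference of each pore subunit gene, Usp7 cKO minus Usp7 WT (horizontal axis), as a circle with its SE, filled where the limma adjusted p was under 0.05; grey ticks are the values under the other settings, which include fits to counts. The ticks of Cacna1a, Cacna1g, Cacna1h and Cacna1i stay on one side of 0, at 0.80 to 0.94 for Cacna1h, whereas those of Cacna1b, Cacna1c, Cacna1d and Cacna1e lie on both sides.

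The pore genes shared much of their variation between libraries. Genes outside the set also followed Cacna1h and Cacna1i closely, as given below, but those were picked as the closest of 14713 genes. They do not show how closely a typical gene follows, so whether the shared variation is particular to the pore genes was not tested. Usp7 cKO replicate 3 had the highest level of its group for 8 of 8 genes, and Usp7 WT replicate 5 for 8 of 8. Usp7 WT replicate 4 had the lowest level of its group for 7 of 8. Shares of the summed TPM of the 8 genes remove what a library does to all of them alike, and are given as a description, since the members of a type were chosen by name.

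By type, the summed TPM of the 8 genes was 749 ± 90.4 in Usp7 cKO and 764 ± 66.9 in Usp7 WT (SD, n = 5 each), with overlapping groups. The P/Q-type share was 18.6, 20.9, 22.2, 19.8 and 19.8% in Usp7 cKO, against 25.3, 24.5, 24.4, 22.8 and 23.8% in Usp7 WT. The T-type share was 37.6, 35.7, 37.2, 33.8 and 35.3% in Usp7 cKO, against 33.2, 33.4, 33.0, 33.7 and 32.6% in Usp7 WT. Neither share overlapped between genotypes, with the P/Q-type share lower and the T-type share higher in Usp7 cKO. The T-type groups came close, at 33.8% in Usp7 cKO replicate 4 and 33.7% in Usp7 WT replicate 4. Shares of a sum are tied, here and within the T-type below, since a lower share of 1 part raises the rest. The N-type share averaged 18.3 ± 0.753% in Usp7 cKO and 18.1 ± 0.282% in Usp7 WT. The R-type share averaged 14.7 ± 1.21% and the L-type share 10.8 ± 0.450% in Usp7 cKO, against 14.1 ± 0.730% for R-type and 10.4 ± 0.565% for L-type in Usp7 WT. These last 3 shares overlapped between the genotypes.

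Within the T-type, Cacna1h made up 24.2 to 28.97% of the summed level in Usp7 cKO and 14.3 to 15.5% in Usp7 WT. Cacna1i made up 40.2 to 47.3% in Usp7 cKO and 54.8 to 58.7% in Usp7 WT. Cacna1g made up 28.5 to 33.7% in Usp7 cKO and 26.9 to 30.8% in Usp7 WT. The first pair of ranges is apart, with Cacna1h higher in Usp7 cKO, the second is apart with Cacna1i lower, and the third overlaps. The summed T-type level was 221 to 332 TPM in Usp7 cKO and 229 to 278 TPM in Usp7 WT, so the composition of the type separated the genotypes where its sum did not.

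**Figure D3:**
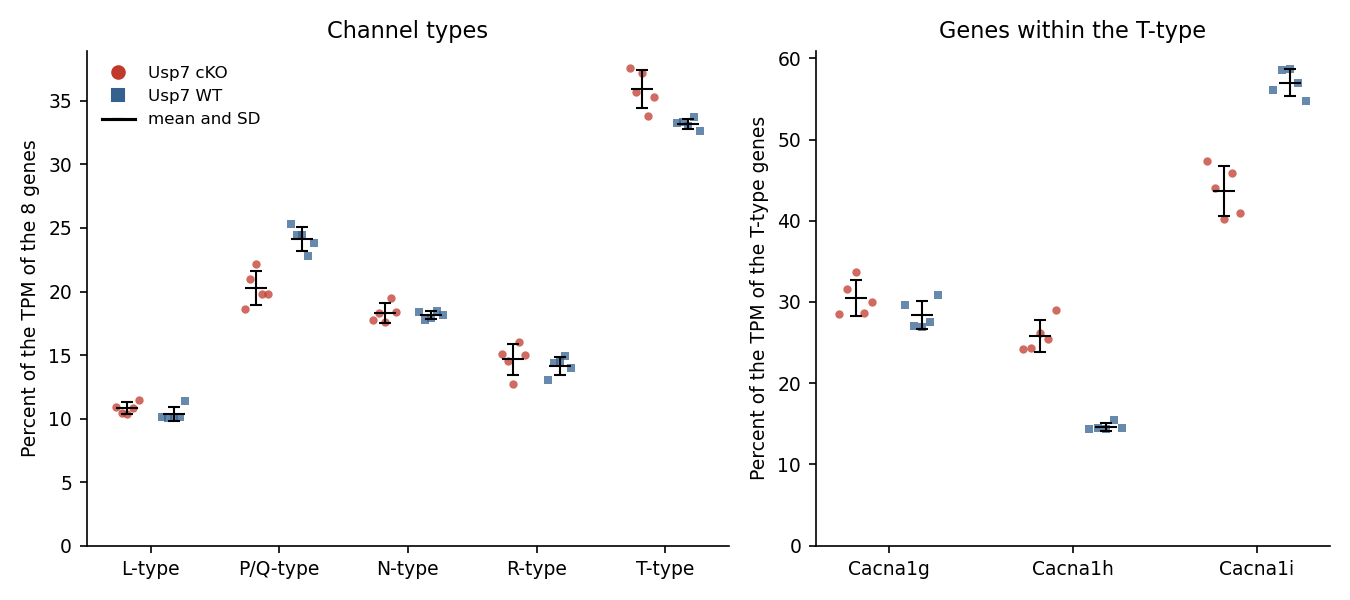
Left, share of each channel type in the summed TPM of the 8 pore subunit genes; right, share of each gene in the summed TPM of the T-type genes (both in percent, 1 point per library, with mean and SD of 5 libraries). In Usp7 cKO (red) the P/Q-type and Cacna1i shares lie below, and the T-type and Cacna1h shares above, those of Usp7 WT (blue).

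Markers of regions next to the cortex were looked at because T-type channels are prominent there. Counts of called markers stand beside 9.22% of all genes tested that limma called higher and 4.67% that it called lower. The 7 thalamic markers summed to 119 to 146 TPM in Usp7 cKO and 100 to 112 TPM in Usp7 WT, without overlap. Of the 5 that were tested, 1 was higher, namely Prkcd, at 15.7 ± 2.11 TPM in Usp7 cKO and 7.42 ± 0.965 TPM in Usp7 WT (log2 change 1.03, limma adjusted p = 0.000117). Lhx2, Rora, Tcf7l2 and Slc17a6 overlapped between the genotypes and were not called. Their log2 changes were 0.20, 0.13, 0.21 and 0.02 (limma adjusted p = 0.114, 0.284, 0.287 and 0.905). Lhx2 was the largest part of the thalamic sum, with means of 64.0 TPM in Usp7 cKO and 55.5 TPM in Usp7 WT. The thalamic factors Gbx2 and Lhx9 averaged 0.102 and 0.288 TPM in Usp7 cKO and 0.0477 and 0.106 TPM in Usp7 WT, below the level tested by limma. Lhx9 did not overlap between the genotypes, and edgeR on summed bin counts called it higher (log2 change 1.62, adjusted p = 0.000472). There 2 of the 6 markers tested were higher, as were 3235 of all 23012 genes tested. The 5 hippocampal markers summed to 280 to 320 TPM in Usp7 cKO and 276 to 297 TPM in Usp7 WT, with 1 called higher. The 6 striatal markers ranged widely, from 147 to 584 TPM in Usp7 cKO and from 211 to 451 TPM in Usp7 WT, and did not pass the test. The 8 GABAergic markers summed to 838 to 978 TPM in Usp7 cKO and 955 to 1035 TPM in Usp7 WT, with 1, Pvalb, called lower, which ended without the libraries of discordant sex (limma adjusted p = 0.128). The part of these markers, and of the glutamatergic markers, in the changes of Cacna1h, Cacna1i and Cacna1a was not tested.

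The genes whose variation most resembled that of Cacna1h and Cacna1i were sought among 14713 genes, by Pearson correlation of log2(TPM + 0.5) over the 10 libraries after subtracting the genotype means. These points share library composition, so the values describe these libraries alone. For Cacna1h the closest were Crat, a carnitine acetyltransferase (r = 0.987), the transcription factor gene Ubp1 (r = 0.982) and Plekha7, of cell junctions (r = 0.981). None of the 3 was called between genotypes, and Crat had 22.4 to 31.4 TPM in Usp7 cKO and 24.3 to 27.6 TPM in Usp7 WT. For Cacna1i they were Galt, an enzyme of galactose metabolism (r = 0.99), Cactin (r = 0.979) and Fbxw8, of a ubiquitin ligase (r = 0.974). Galt was called lower in Usp7 cKO, at 39.0 ± 5.98 TPM against 49.3 ± 4.65 TPM in Usp7 WT (log2 change -0.34, limma adjusted p = 0.0493).

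The genes that work with the pores were next compared, from lists of their partners. Where the libraries of discordant sex are left out below, 1315 of all 27667 genes tested were higher and 868 lower. Of the 4 beta subunit genes, 1 was higher and 2 were lower in Usp7 cKO, against 9.22% and 4.67% of all genes. Cacnb1 averaged 138 ± 1.62 TPM in Usp7 cKO and 171 ± 11.4 TPM in Usp7 WT (log2 change -0.30, limma adjusted p = 0.00281). Cacnb4, a main partner of P/Q-type pores, averaged 73.4 ± 2.22 TPM in Usp7 cKO and 93.5 ± 7.18 TPM in Usp7 WT (log2 change -0.34, limma adjusted p = 0.00313). Cacnb2 was higher, at 15.7 ± 0.652 TPM in Usp7 cKO against 12.6 ± 0.889 TPM in Usp7 WT (log2 change 0.31, limma adjusted p = 0.0135), a call that ended without the libraries of discordant sex (log2 change 0.25, limma adjusted p = 0.0937). Cacnb3, the most abundant of the 4, was not called on TPM, but edgeR on summed bin counts called it lower (log2 change -0.15, adjusted p = 0.0439). That makes 3 of the 4 lower there, where 3166 of all 23012 genes tested were lower. The 4 alpha2delta genes did not pass the test, and the closest was Cacna2d1 at -0.14 (limma adjusted p = 0.0752). On the rescaled TPM Cacna2d1 was called lower (log2 change -0.20, limma adjusted p = 0.0344), as it was in edgeR on summed bin counts (adjusted p = 0.0137), which also called Cacna2d4 higher (log2 change 0.40, adjusted p = 0.02). The rescaled TPM called 20.3% of all genes and edgeR 27.8%. The median log2 change was -0.20 over the beta genes and 0.07 over the alpha2delta genes, against 0.06 over all genes tested.

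Of 13 genes of proteins that bind or regulate the pores, 3 were higher and 1 was lower, against 9.22% and 4.67% of all genes. Their median was -0.09. Rem2 and Rrad encode small GTPases that hold down high-voltage-activated calcium currents. Rem2 averaged 20.05 ± 3.34 TPM in Usp7 cKO and 9.85 ± 1.98 TPM in Usp7 WT (log2 change 0.996, limma adjusted p = 0.00185). Rrad averaged 4.57 ± 0.995 TPM in Usp7 cKO and 2.301 ± 0.347 TPM in Usp7 WT (log2 change 0.84, limma adjusted p = 0.0041). Gem and Rem1, also in the list, were not called (log2 changes -0.10 and 0.23, limma adjusted p = 0.768 and 0.554). Nos1, the neuronal nitric oxide synthase, averaged 25.8 ± 3.23 TPM in Usp7 cKO and 17.8 ± 1.93 TPM in Usp7 WT (log2 change 0.52, limma adjusted p = 0.00705). With the libraries of discordant sex left out, 3 genes of the list were higher and none lower, and its median was 0.02.

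Of 14 genes of the presynaptic machinery around P/Q- and N-type channels, 8 were lower and none higher, against 4.67% and 9.22% of all genes. The summed level of the 14 was 2888 to 3224 TPM in Usp7 cKO and 3359 to 3955 TPM in Usp7 WT. The active zone gene Rims1, whose protein tethers these channels, averaged 189 ± 13.2 TPM in Usp7 cKO and 295 ± 23.8 TPM in Usp7 WT (log2 change -0.64, limma adjusted p = 0.000206). Syt1, the calcium sensor of release, and the scaffold genes Pclo and Erc2 changed by -0.33, -0.30 and -0.32 (limma adjusted p = 0.00172, 0.00192 and 0.00499). The list's median was -0.29, and 8 genes were lower also without the libraries of discordant sex.

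Downstream of calcium entry, 1 of 12 signalling genes was higher and 5 were lower, against 9.22% and 4.67% of all genes. The median of the 12 was -0.12. Nfatc4, a transcription factor activated by calcineurin, averaged 3.62 ± 0.583 TPM in Usp7 cKO and 1.11 ± 0.158 TPM in Usp7 WT (log2 change 1.35, limma adjusted p = 0.000106). The calcineurin genes Ppp3ca and Ppp3cb and the kinase gene Camk4 were lower, by -0.34, -0.34 and -0.25 (limma adjusted p = 0.00255, 0.00316 and 0.00275). Without the libraries of discordant sex, 1 was higher and 3 were lower. Camk2a stands both in this list and among the glutamatergic markers. Of 8 calcium- and sodium-activated potassium channel genes, 2 were lower and none higher, against 4.67% and 9.22% of all genes. The 2 were Kcnt2 (log2 change -0.44, limma adjusted p = 0.00495) and Kcnma1, the BK channel (log2 change -0.22, limma adjusted p = 0.0302). The list's median was 0.00. Kcnma1 no longer passed without the libraries of discordant sex (limma adjusted p = 0.113). The glutamatergic markers given above were lower in the same libraries, and their part in the changes of the presynaptic and signalling lists was not tested.

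Exon usage asks whether an exon bin, a stretch of a gene counted on its own, changed relative to the rest of its gene. Of 507 tested bins of the 8 genes, edgeR called 5, all with higher usage in Usp7 cKO, against 0.43% of all 228098 bins. All 5 lay outside the exons of the protein-coding transcripts of GENCODE M21. Bins of that class were called more often in other genes too. Over all genes with a protein-coding transcript, 1.82% of bins outside such exons and 0.24% of those inside were called. In the 8 genes it was 10.6% of the 47 bins outside. By gene, Cacna1e and Cacna1c were called (Simes test, edgeR adjusted p = 3.15e-06 and 0.00683), against 2.85% of all genes. In the authors' deposited table, DEXSeq called 4 bins of these genes at an adjusted p under 0.05, against 0.573% of all bins with a value. They are Cacna1b E002, in the last exon of Cacna1b-204 (log2 0.16, adjusted p = 2.85e-05), Cacna1a E002, Cacna1e E065, in a noncoding transcript (log2 0.49, adjusted p = 0.00882), and Cacna1i E037. Of these, edgeR called Cacna1a E002, and it gave Cacna1b E002 an adjusted p of 0.929 and Cacna1e E065 one of 0.0789.

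The 2 bins of Cacna1e with the smallest p values flank exon 19 of Cacna1e-201, on the minus strand of chromosome 1, and lie inside a single retained-intron exon of the noncoding transcript Cacna1e-205. They are shown with the exon between them, which is 57 bases long (154473857 to 154473913, GRCm38). Exon sequences here and below are from the GENCODE M21 transcripts.

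Cacna1e exon 19: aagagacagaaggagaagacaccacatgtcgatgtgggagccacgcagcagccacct

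Bin E036 (154472714 to 154473856) had 247, 391, 369, 315 and 410 reads in Usp7 cKO, against 305, 211, 190, 207 and 242 reads in Usp7 WT. It took 0.825, 1.18, 1.13, 0.829 and 1.11% of Cacna1e's reads in Usp7 cKO, against 0.926, 0.589, 0.534, 0.582 and 0.734% in Usp7 WT. Usp7 WT replicate 1 lay above 2 of the Usp7 cKO libraries, and the other Usp7 WT libraries lay below all of them. Its usage was 0.60 higher on the log2 scale (edgeR adjusted p = 4.98e-07), and 0.50 higher without the libraries of discordant sex (edgeR adjusted p = 0.00215). Bin E038 (154473914 to 154476696) took 0.950 to 1.65% in Usp7 cKO and 0.764 to 1.15% in Usp7 WT, and its usage was 0.54 higher (edgeR adjusted p = 2.19e-06). Without the libraries of discordant sex it was 0.39 higher (edgeR adjusted p = 0.0475). In the authors' deposited table both bins have the same direction, at log2 values of 0.61 and 0.56, with adjusted p of 0.0757 and 0.119. Exon 19 itself (bin E037) took 1.36 ± 0.104% in Usp7 cKO and 1.39 ± 0.0960% in Usp7 WT, with a usage change of -0.03 (edgeR adjusted p = 1). The intron cluster around exon 19 was not called either (edgeR adjusted p = 1).

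**Figure D4:**
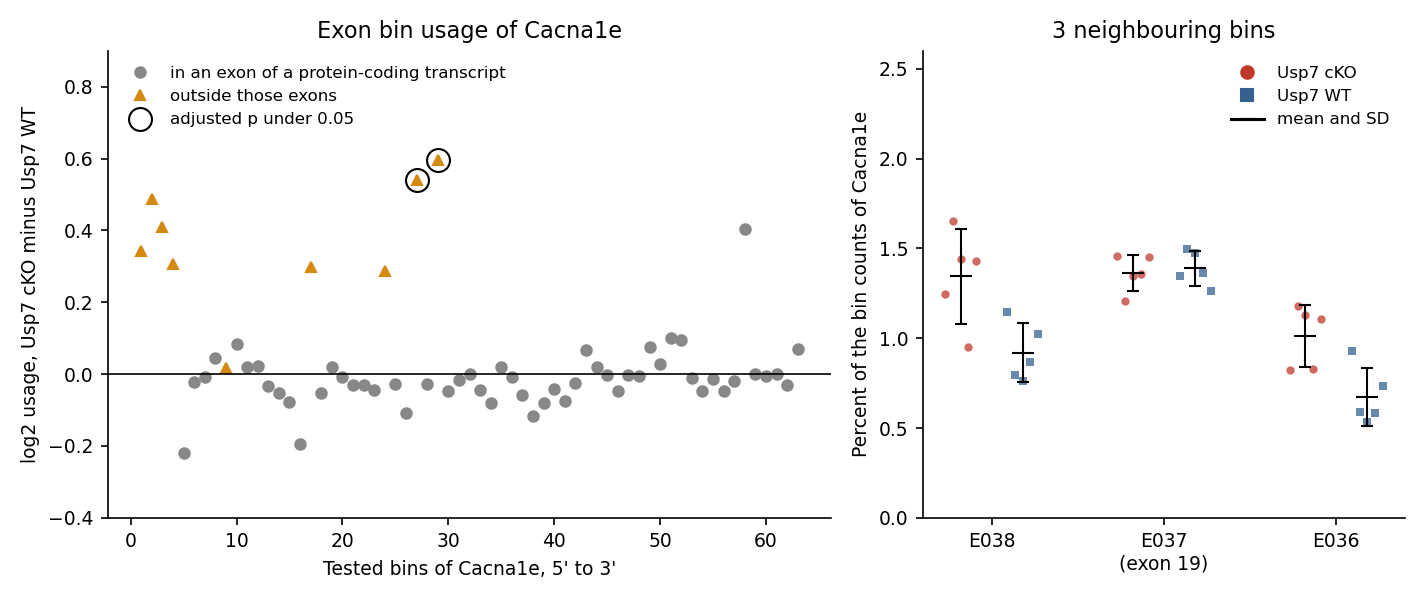
Left, log2 usage difference, Usp7 cKO minus Usp7 WT, of each tested bin of Cacna1e in order from 5' to 3', with bins outside the exons of protein-coding transcripts as triangles and called bins circled. Right, percent of the gene's bin counts in each library for 3 neighbouring bins, with mean and SD. The 9 triangles all lie above 0, and exon 19 (E037) overlaps between the genotypes.

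The pattern of the called bins was shared by others of their kind. Of the 47 tested bins of the 8 genes outside exons of protein-coding transcripts, 42 had higher usage in Usp7 cKO (89.4%), with a median log2 of 0.28. Cacna1b and Cacna1i had 0 bins of this kind. Usage was higher for 10 of 10 in Cacna1a, 13 of 14 in Cacna1d and 9 of 9 in Cacna1e. It was higher for 4 of 7 in Cacna1c, 3 of 4 in Cacna1g and 3 of 3 in Cacna1h. Of the 460 bins inside exons of protein-coding transcripts, 213 had higher usage (46.3%), with a median of -0.01. Over all genes tested that have a protein-coding transcript, 73.6% of bins outside such exons had higher usage, with a median of 0.16, and 47.0% of those inside did. Without the libraries of discordant sex, 38 of the 47 bins had higher usage (80.9%), against 68.8% of such bins over all genes. In Cacna1e, bins outside these exons held 5.04, 5.93, 5.57, 4.86 and 5.79% of the gene's counts in Usp7 cKO, and 3.64 to 4.43% in Usp7 WT, without overlap. In Cacna1a the share was 2.39 to 4.26% in Usp7 cKO and 2.16 to 3.07% in Usp7 WT, and in Cacna1d it was 8.35 to 10.98% in Usp7 cKO and 7.71 to 9.74% in Usp7 WT, both with overlap.

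The other called bins rested on fewer libraries. Cacna1c E052 (chromosome 6: 118702217 to 118705542), within a noncoding transcript, took 1.31 to 2.25% in Usp7 cKO and 0.901 to 1.68% in Usp7 WT (log2 usage 0.50, edgeR adjusted p = 0.00107). Without Usp7 WT replicate 2 it was 0.38 (edgeR adjusted p = 0.101). With neither library of discordant sex its edgeR adjusted p was 0.202, and the authors' deposited table gives it an adjusted p of 0.405. Cacna1a E002 (chromosome 8: 84356825 to 84357125), upstream of the gene's start in GENCODE M21, took 0.349 to 0.520% in Usp7 cKO and 0.287 to 0.360% in Usp7 WT (log2 usage 0.53, edgeR adjusted p = 0.0136). It was no longer called without Usp7 cKO replicate 2, 3 or 4, or Usp7 WT replicate 1 or 2, with edgeR adjusted p values of 0.0514 to 0.204, nor with both libraries of discordant sex left out (edgeR adjusted p = 0.0522). Cacna1d E069 (chromosome 14: 30137041 to 30137124), in no transcript of GENCODE M21, held 13 to 31 reads in Usp7 cKO and 6 to 15 reads in Usp7 WT (log2 usage 1.03, edgeR adjusted p = 0.0478). Leaving out any library ended that call, with edgeR adjusted p values of 0.0508 to 0.205.

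Intron usage was read from spliced reads, as the share of each intron within a leafcutter cluster, a set of introns that share a splice site. None of the 39 clusters of the 8 genes passed an adjusted p under 0.05 in edgeR, against 0.22% of all 10441 clusters. An unadjusted p under 0.05 was reached by 3 of the 39, against 3.97% of all clusters. The 3 lay in Cacna1g, Cacna1i and Cacna1b. Shares of 10 of the 109 tested introns did not overlap between the genotypes, against 3.29% of all introns. Within a cluster the share of 1 intron falls where that of another rises, so these 10 are not 10 separate events. The values of these introns are given as descriptions. The counts of Usp7 WT replicate 1 were all even and were halved before use.

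**Figure D5:**
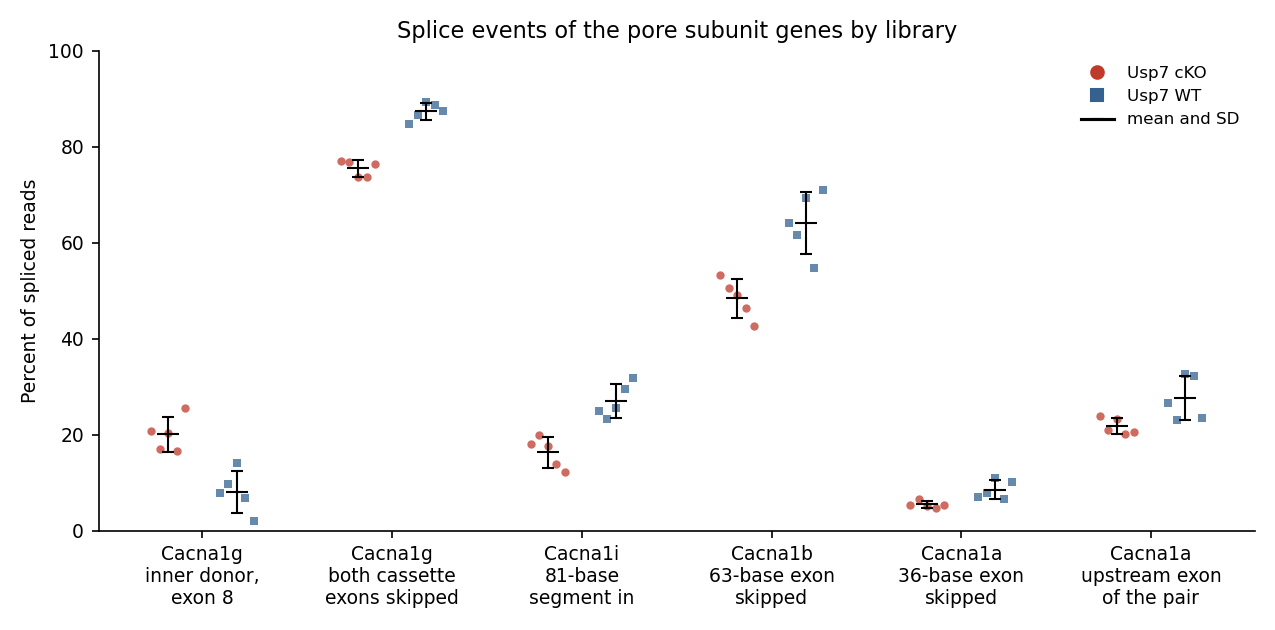
Percent of spliced reads that used each event (vertical axis), 1 point per library with mean and SD of 5 libraries, Usp7 cKO in red and Usp7 WT in blue. The denominator is the reads of the cluster, or for the pair of exclusive exons the reads that join either exon; for Cacna1b the more common of both skipping introns is drawn. The first 5 events do not overlap between the genotypes.

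In Cacna1g, an inner splice donor within exon 8 of Cacna1g-207, which encodes part of the linker between domains I and II, removes 402 bases, a multiple of 3. The donor is shown with the last 20 bases kept and the first 20 removed (94459476 to 94459515, minus strand), where the capitals mark the first bases removed.

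Cacna1g inner donor: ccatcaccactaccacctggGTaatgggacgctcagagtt

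The inner donor took 20.8, 17.1, 20.3, 16.5 and 25.7% of the reads in Usp7 cKO, against 7.84, 9.71, 14.0, 6.87 and 2.11% in Usp7 WT. These rest on 20 to 29 reads per Usp7 cKO library and 3 to 15 reads per Usp7 WT library. The genotypes did not overlap, and the log2 usage change was 1.38 (edgeR adjusted p = 0.49 for the intron and 0.475 for its cluster). Further along Cacna1g, reads that skip both cassette exons 34 and 35 made up 77.1, 76.9, 73.7, 73.6 and 76.3% of a cluster in Usp7 cKO, against 84.7, 86.7, 89.2, 88.6 and 87.5% in Usp7 WT. The genotypes did not overlap here either, although the cluster was not called (edgeR adjusted p = 1). The bins of those exons, of 144 and 135 bases, had usage 0.54 and 0.60 higher in Usp7 cKO, and neither was called (edgeR adjusted p = 0.933 and 0.936).

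In Cacna1i, the acceptor of 1 exon lies at either end of an 81-base coding segment (80390744 to 80390824, plus strand). The capitals mark the last bases before the inner acceptor.

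Cacna1i alternative segment: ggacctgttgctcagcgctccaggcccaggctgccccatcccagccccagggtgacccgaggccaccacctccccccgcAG

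Reads that include the segment made up 18.1, 20, 17.6, 13.8 and 12.1% of the cluster in Usp7 cKO, against 24.9, 23.3, 25.5, 29.6 and 31.8% in Usp7 WT. The groups did not overlap, and the log2 usage change was -0.72 (edgeR adjusted p = 0.809 for the intron and 0.854 for its cluster). The same segment as an exon bin (E037) had 38, 48, 51, 55 and 44 reads in Usp7 cKO, against 90, 90, 73, 94 and 73 in Usp7 WT. Its usage change was -0.51, with an edgeR adjusted p of 0.108 and an adjusted p of 0.0116 in the authors' deposited table. Both readouts come from the same libraries and are not separate evidence.

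Cacna1b has a cassette exon of 63 bases (24682976 to 24683038, minus strand) in the linker between domains II and III, known as e18a. It is shown whole.

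Cacna1b cassette exon: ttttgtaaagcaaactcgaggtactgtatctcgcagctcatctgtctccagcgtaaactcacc

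The more common skipping intron made up 53.2, 50.6, 49.2, 46.5 and 42.6% of the cluster in Usp7 cKO, against 64.0, 61.6, 69.3, 54.7 and 70.9% in Usp7 WT. The intron that enters the exon made up 17.3 to 21.1% in Usp7 cKO and 8.95 to 16.9% in Usp7 WT. Neither overlapped, with the exon skipped less in Usp7 cKO (edgeR adjusted p = 1). The exon's bin (E046) had usage 0.41 higher, which was not called (edgeR adjusted p = 0.319), although its share of the gene's counts did not overlap, at 0.347 to 0.445% in Usp7 cKO and 0.211 to 0.339% in Usp7 WT.

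In Cacna1a, 3 alternatives lie toward the end of the protein. Exon 37 of Cacna1a-201 and its counterpart are mutually exclusive, each 97 bases long, and encode forms of an EF-hand-like region behind the last transmembrane segment. They are identical at 60 of 97 bases, and capitals mark the bases that differ.

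Cacna1a upstream exon: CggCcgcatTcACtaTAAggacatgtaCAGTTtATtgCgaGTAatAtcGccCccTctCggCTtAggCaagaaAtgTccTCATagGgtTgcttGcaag
Cacna1a downstream exon: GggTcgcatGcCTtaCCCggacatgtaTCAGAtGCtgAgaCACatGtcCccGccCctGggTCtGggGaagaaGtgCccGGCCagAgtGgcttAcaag

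The upstream exon (84614695 to 84614791) took 23.9, 20.96, 23.2, 20.1 and 20.6% of the reads that join either exon in Usp7 cKO, against 26.7, 23.1, 32.6, 32.1 and 23.4% in Usp7 WT. The genotypes overlapped, and the downstream exon (84615574 to 84615670) was the more used in every library. Cacna1e has a pair of the same length, and there the upstream exon took 2.53 to 8.35% in Usp7 cKO and 6.90 to 12.6% in Usp7 WT. No cluster of either pair had an unadjusted p under 0.05 in edgeR.

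Exon 44 of Cacna1a-201, of 36 bases, was skipped by 4.82 to 6.62% of the cluster's reads in Usp7 cKO and 6.70 to 10.98% in Usp7 WT, without overlap (edgeR adjusted p = 1). Its bin took 0.882 to 1.01% of the gene's counts in Usp7 cKO and 0.800 to 1.09% in Usp7 WT, with overlap. At the last exon, 2 main acceptors lie 5 bases apart. In the human gene, the choice between such acceptors sets whether the last exon is read in frame as a long tail. The first 30 bases of the mouse exon (84639238 to 84639267) are shown, with the bases skipped by the inner acceptor in capitals.

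Cacna1a last exon: GGCAGtagttccgtcagtggaagcccagcc

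The outer acceptor, which keeps these bases, took 49.0, 53.4, 48.2, 46.2 and 46.2% of the reads in Usp7 cKO, against 54.2, 51.6, 60.4, 52.1 and 58.8% in Usp7 WT. The inner one took 42.6 to 51.0% in Usp7 cKO and 35.9 to 43.7% in Usp7 WT. Both ranges overlapped between genotypes (edgeR adjusted p = 1).

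The L-type genes also carry a pair of mutually exclusive exons, of 84 bases, which encode alternative versions of the third transmembrane segment of domain IV. The pairs are identical at 49 bases in Cacna1c and 51 bases in Cacna1d. Capitals mark the bases that differ within each pair.

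Cacna1c upstream exon: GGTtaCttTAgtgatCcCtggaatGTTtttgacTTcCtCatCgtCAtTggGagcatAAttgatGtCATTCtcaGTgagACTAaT
Cacna1c downstream exon: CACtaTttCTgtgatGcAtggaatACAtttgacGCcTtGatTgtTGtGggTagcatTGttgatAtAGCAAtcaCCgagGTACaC
Cacna1d upstream exon: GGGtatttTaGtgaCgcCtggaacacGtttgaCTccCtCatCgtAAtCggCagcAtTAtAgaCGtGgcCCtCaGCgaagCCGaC
Cacna1d downstream exon: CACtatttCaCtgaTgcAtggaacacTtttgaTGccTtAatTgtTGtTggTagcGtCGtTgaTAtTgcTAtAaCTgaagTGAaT

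Both genes preferred the opposite member of the pair in the same tissue. In Cacna1c the upstream exon (118638427 to 118638510) took 5.70 to 12.0% of the reads that join either exon in Usp7 cKO and 3.79 to 9.78% in Usp7 WT. In Cacna1d the upstream exon (30089822 to 30089905) took 78.9 to 87.2% in Usp7 cKO and 71.6 to 84.8% in Usp7 WT. Neither differed between genotypes beyond the spread of the libraries, with 76 to 235 reads per library over both genes. The single cluster of Cacna1h gave shares that overlapped between genotypes for all 3 of its introns (edgeR adjusted p = 1), on 126 to 319 reads per library. No difference in the intron use of Cacna1h was detectable at this depth, in contrast to its level.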

How the data were processed

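Total RNA of 10 cortices, 1 library per animal, was analysed from 3 deposited tables. Per the file headers, the authors gave gene levels as TPM. The exon bin table holds raw read counts of DEXSeq counting bins, and the intron table spliced read counts per intron of leafcutter clusters, all as deposited. The bin table also holds the authors' log2 fold of exon usage with its p-value and adjusted p-value, as its header shows. GRCm38, SAMtools 1.10, Subread with featureCounts, and STAR 2.7.9a are listed in the submitters' processing notes. Neither the counting strand nor the DEXSeq model is given in the sources used here, so reads of overlapping antisense genes cannot be told apart. All intron counts of Usp7 WT replicate 1 were even, against 52.8 to 55.0% in the other libraries, and were halved.

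Gene levels were tested with limma 3.58.1 (trend, robust) in R 4.3.3 on log2(TPM + 0.5), a scale that understates changes of low genes, with labelled sex as covariate and a minimum mean of 0.5 TPM. edgeR 4.0.16 (glmQLFit, diffSpliceDGE, TMM) tested usage, with a minimum mean count of 10 for bins and 5 for introns. P-values were adjusted by Benjamini-Hochberg over all features tested, two-sided, with a threshold of 0.05. The usage value of a bin or intron is its own log2 change less that of the gene or cluster it belongs to. Tables and plots used Python 3.11.15, numpy 2.4.6, pandas 2.3.3, scipy 1.17.1 and matplotlib 3.10.9. The scripts were tested on simulated data with 200 features changed 1 unit of log2. Of these, limma called 91% of genes. edgeR called the gene of 95% of the changed bins and the cluster of 67% of the changed introns. The changed features were drawn only among those with high levels or counts, and counts had 1 fixed dispersion. Recovery of introns with few reads, such as several described above, was not tested.

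Bin counts summed to 42628526 to 51797145 per library and intron counts to 3388310 to 4367711, while TPM keeps no depth. Alternatives were other pseudocounts, filters, scalings and covariates, edgeR and DESeq2 1.42.0 on bin counts summed per gene, the authors' DEXSeq result, and leaving out libraries. The halving of the even library, the count fit with no filter, the replicate block by title number, and the list counts and bin classes without the libraries of discordant sex were examined after seeing the data. Positions and exon classes are from GENCODE M21.

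The members and lists were chosen with earlier results of these data known. All 8 genes are described, with their called bins, or else the bin with the smallest p, up to 3 intron clusters per gene, and up to 4 genes with the smallest p per list. The genes most like Cacna1h and Cacna1i are the 3 with the highest within-genotype correlation. Bins and introns outside that rule, such as exons 34 and 35 of Cacna1g, Cacna1b E002, Cacna1e E065 and the mutually exclusive exons of Cacna1c and Cacna1d, were named after their values were seen, as were Cacnb3, Gbx2, Lhx9, Cacna2d1, Cacna2d4 and Camk2a. The same holds for Gem, Rem1, Slc17a6 and Cux2. The values of 1 gene of a list are not reported here.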

Additional observations from a re-analysis of the deposited data

Results flagged for a closer look

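In 3 of 88 groups of 5 libraries, 1 library stood far from the other 4 of its genotype, with a gap of more than 0.71 of the group's range. Chance flags about 1 in 20 such groups. The L-type share of the summed TPM of the 8 pore genes was 11.4% in Usp7 WT replicate 5, against 10.04 to 10.2% in the other Usp7 WT libraries. The intron that enters the 63-base cassette exon of Cacna1b took 16.9% of its cluster's reads in Usp7 WT replicate 4, against 8.95 to 9.72% in the other Usp7 WT libraries. An intron of Cacna1e on chromosome 1 (154725920 to 154726891) took 13.3% of its cluster in Usp7 cKO replicate 3, against 8.03 to 9.05% in the other Usp7 cKO libraries.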

How the results depend on the processing

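Cacna1h and Cacna1i kept their direction and their call under all 23 alternatives, with log2 changes of 0.80 to 0.94 and -0.37 to -0.26. Cacna1a passed with rescaled TPM (-0.34), edgeR on summed counts (-0.35), the same with no filter (-0.35) or DESeq2 size factors (-0.36), and DESeq2 (-0.36), and ranged from -0.36 to -0.22 with 1 library left out. Cacna1g passed with edgeR and no filter (0.15). The uncalled values near 0 changed sign. Cacna1b ranged from -0.0652 to 0.0101 with 1 library left out, Cacna1c from -0.0347 to 0.0583, Cacna1d from -0.0029 to 0.13 and Cacna1e from -0.0048 to 0.0484. Cacna1c was -0.0505 with rescaled TPM, -0.0728 with Xist as covariate and -0.0495 without the libraries of discordant sex. Cacna1d was -0.0766 with Xist and -0.032 without those libraries. Cacna1e was -0.0407 with rescaled TPM, -0.0143 with Xist and -0.00082 without those libraries. With edgeR on summed counts, Cacna1c, Cacna1d and Cacna1e were -0.0579, -0.0112 and -0.0348, and with no filter -0.0588, -0.0121 and -0.0356. With DESeq2 size factors they were -0.0635, -0.0168 and -0.0403, and with DESeq2 -0.0634, -0.0168 and -0.0403. The cause of these sign changes was not tested.

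Genes called over the whole table numbered 3832, against 2183 without the libraries of discordant sex, 6401 with edgeR, 7236 with edgeR and no filter, 6422 with DESeq2 size factors, 6599 with DESeq2 and 2789 to 3586 with 1 library left out. The 5 called bins of the pore genes became 3 without the covariate, 2 without the libraries of discordant sex, and 2 to 5 with 1 library left out, counts that include other bins in 3 of the 10 fits; of the same 5 bins, 2 to 4 stayed called. Called intron clusters of these genes were 0 in all 17 alternatives. The leading intron of 1 Cacna1c cluster ranged from -0.0399 to 0.384, and the N-type share difference from -0.132 to 0.354 percentage points, with 1 library left out. The P/Q-type share difference stayed at -4.38 to -3.47 points and the T-type difference at 2.32 to 3.34 points. The labels speak of litter-matched pairs without naming them, and the sample titles end in a number of unstated meaning. Between genotypes, deviations from the group means correlated at -0.02 to 0.09 for the 9 combinations with the same number and at -0.09 to 0.03 for the other 16, and all 10 libraries correlated best with one of their own number, which is a hint from the data and not from the design. With that number as a replicate block, 3654 genes, 1083 bins and 19 intron clusters were called over the whole series. Of the pore genes, 6 bins and 0 intron clusters were called. Cacna1h was 0.89 (limma adjusted p = 0.000307), Cacna1i -0.30 (0.039) and Cacna1a -0.29 (0.0628), and no pore gene changed its call. In simulated data edgeR called the cluster of 67% of changed introns, which were drawn from introns with high counts only.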
